A study of Mus musculus with 6 samples.

Results

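The 10 genes described here, Cdkn1a, Mdm2, Ccng1, Eda2r, Phlda3, Aen, Trp53inp1, Zmat3, Sesn1 and Gdf15, belong to the best known targets of the transcription factor p53 in the mouse. They were chosen by name as a damage response set, and each was found by its symbol among the 34745 genes of the count files. RNA was sequenced from primary hepatocytes of 2 groups of male mice aged 12 weeks, with 3 libraries in each group. Both groups were FOXA2flox/flox mice (FOXA2f/f), in which the gene of the liver transcription factor FOXA2 is flanked by loxP sites. Both received an AAV8 virus 2 weeks before the first CCl4 dose, and both received CCl4 intraperitoneally at 0.25 ml/kg, given 2 times a week during 4 weeks. CCl4 is a hepatotoxin that hepatocytes convert into reactive radicals and that produces fibrosis on repeated dosing. In the FOXA2H-KO+CCl4 group the virus was AAV8-TBG-Cre, whose TBG promoter restricts the recombinase to hepatocytes. In the FOXA2f/f+CCl4 group it was AAV8-TBG-Control. Mice were killed on day 3 after the last dose, so that the libraries show a state days after the last injury and not the acute response. Every library comes from CCl4-treated animals, so the comparison asks what differed in the injured state when hepatocytes lacked FOXA2, and not what CCl4 did to the p53 targets. The groups are written FOXA2f/f and FOXA2H-KO below, and libraries carry their labelled replicate numbers 1, 2 and 4.

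The protein p53, encoded by Trp53, is kept scarce in undamaged cells because MDM2 marks it for degradation. DNA damage and other stresses stabilise it, and it then binds paired decamers near its target genes and raises their transcription. The targets arrest the cell cycle, start cell death, lower oxidative stress and, through MDM2 itself, return p53 to its resting level. In the liver this response accompanies genotoxic injury and regeneration, and several of its targets, Gdf15 among them, are also switched on by other stress pathways.

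None of the 10 genes differed between FOXA2H-KO and FOXA2f/f hepatocytes past the test. Cdkn1a, the cell cycle inhibitor p21, had the highest fold change, with 42.9 ± 14.2 CPM (counts scaled to a common library size) in FOXA2f/f and 67.1 ± 24.2 CPM in FOXA2H-KO libraries (SD, n = 3 each). Phlda3, which restrains AKT signalling, had the lowest, at 11.9 ± 0.704 against 8.45 ± 1.13 CPM (SD, n = 3 each). Mdm2, the feedback inhibitor, stood at 56.0 ± 5.56 against 53.1 ± 2.58 CPM (SD, n = 3 each). The library sizes behind CPM were adjusted by the trimmed mean of M values (TMM), and log2 fold changes are FOXA2H-KO over FOXA2f/f throughout.

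The libraries held 20983455 to 28327765 counted fragments, and the 10 genes had 170 to 4843 counts in a library. Foxa2, the deleted gene, had 442, 246 and 516 counts in FOXA2f/f replicates 1, 2 and 4 and 28, 19 and 35 counts in FOXA2H-KO replicates 1, 2 and 4, a log2 fold change of -3.85 (SE 0.31, adjusted p = 0.0313 by edgeR's quasi-likelihood test). The groups did not overlap and matched their labels. Hepatocyte markers summed to 104000 to 152400 CPM over the 6 libraries. Markers of other liver cells were also present, and none of the listed markers of endothelial cells, macrophages, stellate cells, lymphocytes, neutrophils or cholangiocytes was at 0 in every library. FOXA2f/f replicate 4 had the highest summed endothelial markers (695 CPM against 209 to 440 in the other 5) and macrophage markers (2491 against 519 to 1869), and FOXA2f/f replicate 2 was the lowest of the 6 libraries for all 6 sets of non-hepatocyte markers. The summed neutrophil markers were 6.25 to 87.6 CPM in FOXA2f/f and 6.94 to 14.1 CPM in FOXA2H-KO libraries, and all 5 tested had a log2 fold change below 0 (4 with an unadjusted p under 0.05 by edgeR). The summed cholangiocyte markers were 174 to 367 against 252 to 708 CPM, and all 5 tested were above 0 (2 with an unadjusted p under 0.05 by edgeR). Most of these sums came from Spp1, at 163.5 to 352.8 against 241.2 to 686.7 CPM. The part of these cells in the results below was not tested. In such bulk RNA, fewer cells of a type and less RNA per cell cannot be told apart.

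The sites at which p53 could bind were sought in RefSeq promoter windows on GRCm38, which run from 250 bases before to 50 bases after a start. Windows were given for 8 of the 10 genes. A joined site means a pair of p53 decamers without a spacer, 20 bases long, with at most 3 mismatches to the consensus and with the C and G of each decamer core kept. The decamer consensus is palindromic, so a single search reads both strands, and a joined site that holds a perfect decamer is counted under both headings. Such a joined site lay in 5 of the 12 windows of these 8 genes (4 genes, with overlapping windows of Aen sharing a site), and 1.38% of 32851 windows of the same length hold one. A perfect single decamer lay in 6 of the 12 windows (5 genes), against 8.36% of all windows. The sites are shown because they are the sequence feature that the set's name rests on, with the site in capitals, flanks in lower case and each strand read in the direction of its gene.
Cdkn1a joined site, chr17:29090928-29090947, plus strand, 1 mismatch, 51 bases before the start: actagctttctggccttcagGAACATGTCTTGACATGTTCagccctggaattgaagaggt
Ccng1 joined site, chr11:40755462-40755481, minus strand, 1 mismatch, 195 bases before the start: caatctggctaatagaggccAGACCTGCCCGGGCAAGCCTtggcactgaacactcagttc
Sesn1 joined site, chr10:41887266-41887285, plus strand, 3 mismatches, 173 bases before its downstream start: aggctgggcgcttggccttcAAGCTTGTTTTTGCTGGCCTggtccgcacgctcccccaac
Aen joined site, chr7:78895937-78895956, plus strand, 3 mismatches, 121 bases before its downstream start and 10 bases after its upstream start: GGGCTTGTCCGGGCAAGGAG
Mdm2 single decamer, chr10:117710935-117710944, minus strand, 186 bases before the start: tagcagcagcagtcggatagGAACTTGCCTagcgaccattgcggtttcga
The windows of Phlda3, Gdf15 and Eda2r held no match, nor did those of the downstream start of Cdkn1a and the upstream start of Sesn1. This says only that these letters are not in those 300 bases. The distance given for Cdkn1a is from its upstream start. A match is a description of the sequence, and binding of p53 was not measured in these libraries.

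Compared per gene length, the 10 genes spanned a 24.3-fold range of FPKM (fragments per kilobase of gene length, scaled to the library total). Trp53inp1, a partner of p53 in stress and autophagy, had the highest mean over the 6 libraries at 23.8 FPKM (17.4 to 29.6). Ccng1, the cyclin G1 gene, followed at 20.2 FPKM (17.2 to 23.0), and Cdkn1a at 17.9 FPKM (10.7 to 30.7). These were the most abundant transcripts of the set in hepatocytes of both groups. Gdf15 averaged 10.2 FPKM (3.85 to 19.3), Sesn1 7.41 (3.17 to 9.93), Mdm2 5.57 (5.14 to 6.05) and Phlda3 5.06 (3.89 to 6.48). Aen averaged 2.78 FPKM (2.38 to 3.20), Eda2r 2.59 (1.99 to 3.72) and Zmat3 0.981 (0.828 to 1.22). In this order 7 of the 9 neighbouring pairs had overlapping ranges, so only the steps from Phlda3 to Aen and from Eda2r to Zmat3 exceeded the spread of the libraries.

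**Figure D1:**
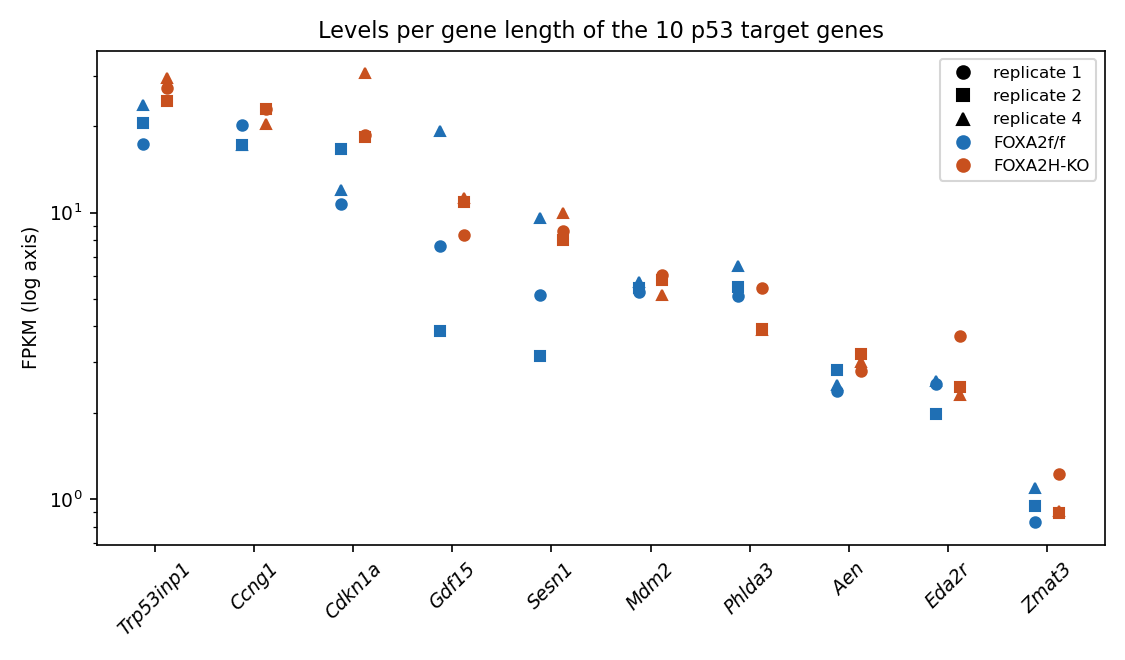
FPKM of the 10 genes on a log axis, one point per library, ordered by the mean over 6 libraries. Blue points are FOXA2f/f and orange points FOXA2H-KO libraries, and marker shapes are replicate numbers. The levels run from 23.8 FPKM for Trp53inp1 to 0.981 FPKM for Zmat3, and most neighbours overlap.

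Cell cycle arrest is represented by Cdkn1a (ENSMUSG00000023067), on chromosome 17 at 29090976-29100727 of GRCm38, plus strand. Its level was 36.3, 59.2 and 33.2 CPM in FOXA2f/f replicates 1, 2 and 4, and 51.0, 55.4 and 94.99 CPM in FOXA2H-KO replicates 1, 2 and 4. FOXA2H-KO replicate 4 stood above the rest, while FOXA2f/f replicate 2 lay above 2 of the 3 FOXA2H-KO libraries, so the groups overlapped. The log2 fold change was 0.65 (SE 0.30, 95% interval -0.06 to 1.35), with an adjusted p of 0.941 by edgeR's quasi-likelihood test and p = 0.3 by the exact two-sided permutation test, which cannot go below 0.1 with 3 against 3. The estimate depended on single libraries: it was 0.32 without FOXA2H-KO replicate 4 and 0.95 without FOXA2f/f replicate 2, and in the latter fit the groups no longer overlapped (edgeR adjusted p = 0.531). On the FPKM scale, which corrects for the total count alone, the groups did not overlap either, with 10.7, 16.7 and 12.0 FPKM against 18.6, 18.4 and 30.7 FPKM for FOXA2f/f and FOXA2H-KO replicates 1, 2 and 4. Exons of an antisense gene in GENCODE M21 cover 7.68% of the exonic bases of Cdkn1a, and whether the counting used strand is not given in the sources used here.

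Ccng1 (ENSMUSG00000020326, chr11:40748552-40755311, minus strand) encodes cyclin G1, which recruits a phosphatase to MDM2. It was measured at 95.7, 85.4 and 67.1 CPM in FOXA2f/f replicates 1, 2 and 4, and at 88.3, 97.6 and 88.6 CPM in the FOXA2H-KO replicates of the same numbers. The FOXA2H-KO libraries fell within or just above the FOXA2f/f range, whose low value was replicate 4. Its log2 fold change was 0.15 (SE 0.16, 95% interval -0.22 to 0.51, edgeR adjusted p = 0.983). It was 0.02 without FOXA2f/f replicate 4 and 0.28 without FOXA2f/f replicate 1, where the groups did not overlap. Zmat3 (ENSMUSG00000027663, chr3:32334792-32366014, minus strand), an RNA-binding zinc finger protein that regulates splicing, had 17.3, 20.7 and 18.7 CPM in FOXA2f/f and 20.7, 16.6 and 17.4 CPM in FOXA2H-KO replicates 1, 2 and 4. These values interleaved, with a log2 fold change of -0.05 (SE 0.15, edgeR adjusted p = 0.993), and the sign turned when library size alone was used.

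Feedback on p53 is represented by Mdm2 (ENSMUSG00000020184, chr10:117688875-117710758, minus strand), the ubiquitin ligase that p53 itself induces. Its level was 56.6, 61.3 and 50.2 CPM in FOXA2f/f replicates 1, 2 and 4, and 52.7, 55.8 and 50.7 CPM in FOXA2H-KO replicates 1, 2 and 4. All FOXA2H-KO values lay inside the FOXA2f/f range. The log2 fold change of -0.08 had the smallest error of the set (SE 0.12), with a 95% interval of -0.37 to 0.21 that lies well inside a 2-fold change in either direction, and an edgeR adjusted p of 0.985. Its sign was positive when only the library total was used for scaling (0.05).

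Death and survival signalling is represented by Phlda3, Eda2r and Aen. Phlda3 (ENSMUSG00000041801, chr1:135766119-135769136, plus strand) encodes a pleckstrin homology domain protein that competes with AKT for membrane lipids. It had 11.3, 12.7 and 11.7 CPM in FOXA2f/f replicates 1, 2 and 4, and 9.75, 7.74 and 7.86 CPM in FOXA2H-KO replicates 1, 2 and 4. Every FOXA2H-KO library was below every FOXA2f/f library on this scale. The log2 fold change was -0.49 (SE 0.17, 95% interval -0.88 to -0.10), the unadjusted edgeR p was 0.0199 and the adjusted p 0.836. Leaving out any 1 library kept the log2 fold change below 0 (-0.61 to -0.43). Groups already apart stay so in such fits almost by construction, which adds no support. The unadjusted edgeR p became 0.0776 without FOXA2H-KO replicate 2 and 0.0748 without FOXA2H-KO replicate 4. On the FPKM scale the groups overlapped.

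Eda2r (ENSMUSG00000034457, chrX:97333840-97377216, minus strand) is a receptor of the tumour necrosis factor family. Its CPM were 19.4, 15.96 and 16.3 in FOXA2f/f replicates 1, 2 and 4, and 23.1, 16.8 and 16.2 in the FOXA2H-KO replicates. Apart from the higher FOXA2H-KO replicate 1, the groups covered the same range (log2 fold change 0.12, SE 0.18, edgeR adjusted p = 0.983), and the sign turned without that library. Aen (ENSMUSG00000030609, chr7:78895854-78911209, plus strand), a nuclease of apoptotic cells, had 27.8, 34.4 and 23.9 CPM in FOXA2f/f and 26.4, 33.4 and 32.05 CPM in FOXA2H-KO replicates 1, 2 and 4. The FOXA2H-KO values lay within the FOXA2f/f range (log2 fold change 0.09, SE 0.17, edgeR adjusted p = 0.991).

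Stress and metabolic control is represented by Trp53inp1, Sesn1 and Gdf15. Trp53inp1 (ENSMUSG00000028211, chr4:11156431-11174379, plus strand) had 138, 170 and 154 CPM in FOXA2f/f replicates 1, 2 and 4, and 174, 173 and 214 CPM in FOXA2H-KO replicates 1, 2 and 4. All 3 FOXA2H-KO libraries were above all FOXA2f/f libraries, although FOXA2f/f replicate 2 came close to the lower pair. This gave a log2 fold change of 0.28 (SE 0.15, 95% interval -0.08 to 0.64), with an edgeR adjusted p of 0.957 and p = 0.1 by the exact permutation test, the smallest that 3 against 3 allow. The log2 fold change was at least 0.18 in each of the 6 fits that left out 1 library. Groups that do not overlap stay apart in such fits almost by construction, so their separation there adds no support.

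Sesn1 (ENSMUSG00000038332, chr10:41809935-41908424, plus strand) encodes sestrin 1, which restrains mTORC1 and lowers peroxides. It had 18.8, 12.1 and 28.6 CPM in FOXA2f/f replicates 1, 2 and 4, and 25.6, 26.3 and 33.3 CPM in FOXA2H-KO replicates 1, 2 and 4. FOXA2f/f replicate 4 reached the FOXA2H-KO range while FOXA2f/f replicate 2 was the lowest of all. On the log2 scale the change was 0.51 (SE 0.29, 95% interval -0.17 to 1.19, edgeR adjusted p = 0.961). It was 0.26 without FOXA2f/f replicate 2 and 0.87 without FOXA2f/f replicate 4, where the groups did not overlap and the edgeR adjusted p was 0.201. That fit lowered p-values widely: 2424 of 14560 genes had an unadjusted edgeR p under 0.05, against 745 of 14417 with all libraries.

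Gdf15 (ENSMUSG00000038508, chr8:70629393-70632456, minus strand) encodes a secreted stress hormone that acts on the brainstem to lower food intake. Its CPM were 24.5, 12.9 and 50.9 in FOXA2f/f replicates 1, 2 and 4, and 21.8, 31.2 and 33.2 in FOXA2H-KO replicates 1, 2 and 4. The FOXA2f/f libraries held both the lowest and the highest value, and the FOXA2H-KO libraries lay between them. The log2 fold change of -0.04 had the widest error of the set (SE 0.44, 95% interval -1.07 to 0.98, edgeR adjusted p = 0.998), and it moved from -0.39 without FOXA2f/f replicate 2 to 0.61 without FOXA2f/f replicate 4. The data therefore give no direction for Gdf15.

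**Figure D2:**
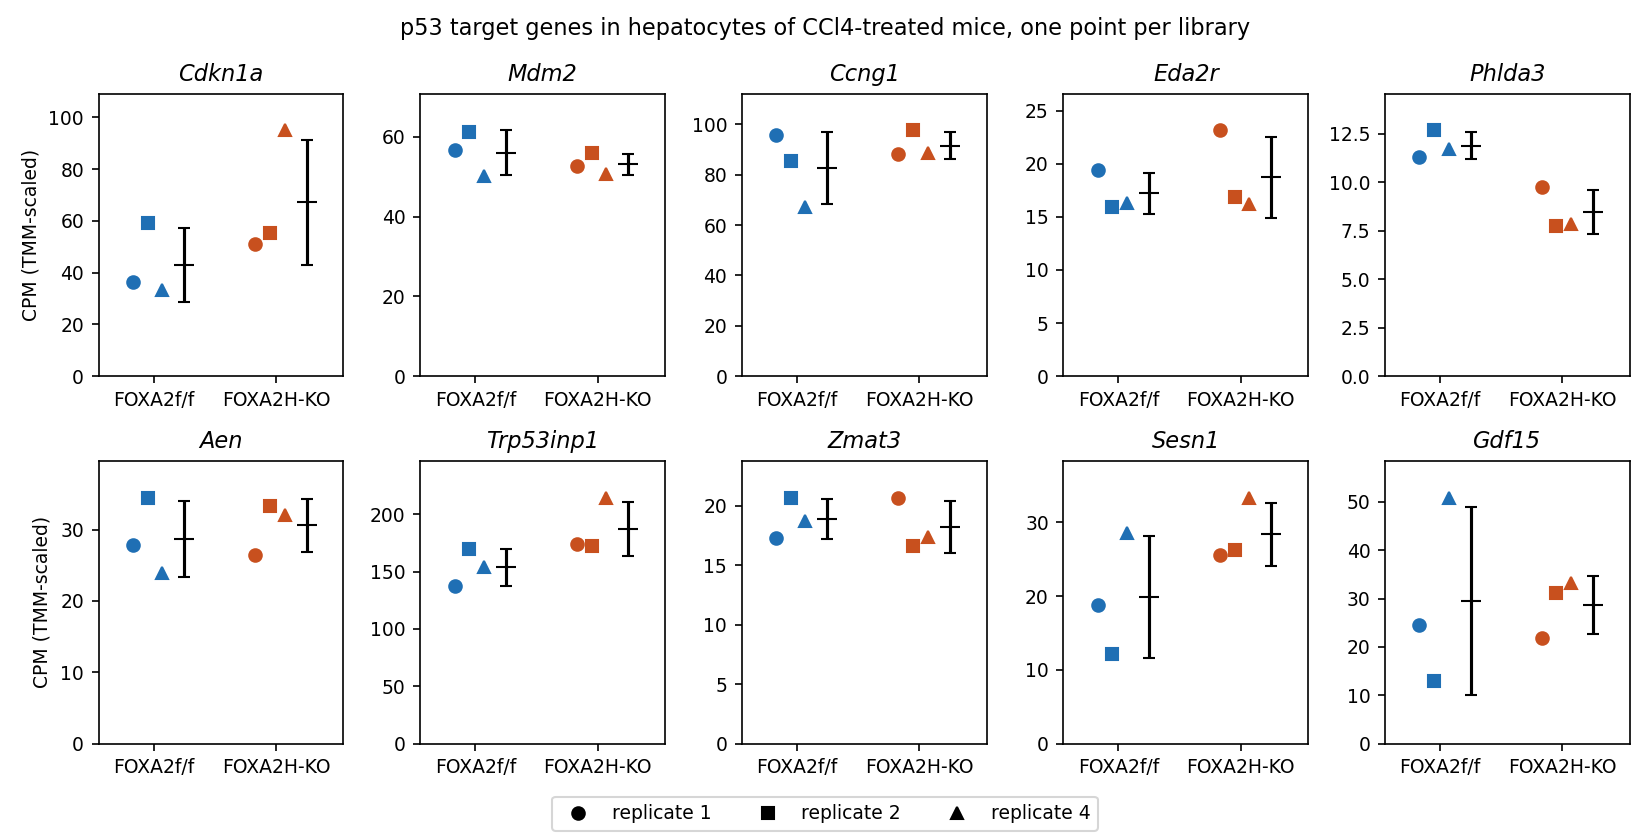
CPM (scaled by TMM) of the 10 genes, one panel per gene with an axis that starts at 0. Points are libraries, with blue for FOXA2f/f and orange for FOXA2H-KO, and black bars are the mean ± SD of 3. The groups are apart only for Phlda3 (lower) and Trp53inp1 (higher), and on the FPKM scale Phlda3 overlaps while Cdkn1a and Ccng1 do not.

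Over the set, 0 of 10 genes were called by edgeR's quasi-likelihood test at an adjusted p under 0.05 and a fold of at least 2. Of 14417 genes tested 0.00694% were called, which is 1 gene, Foxa2 itself. DESeq2 and edgeR's exact test also called 0 of 10. An unadjusted p under 0.05 was reached by 1 of 10 genes with the quasi-likelihood test, where 5.17% of all genes reached it, by 2 of 10 with DESeq2 (4.04% of 22561 genes) and by 2 of 10 with the exact test (5.31% of 14417). Groups that did not overlap were found for 1 of 10 genes in the higher direction, against 4.54% of all genes, and for 1 of 10 in the lower direction, against 5.96%. These are counts of 1 or 2 genes, and nothing particular to the set is read from them. A log2 fold change above 0 was found for 6 of 10, against 47.8% of all genes. The median was 0.11, against -0.01 for all genes tested. It was 0.05 without FOXA2f/f replicate 4 and 0.06 without FOXA2H-KO replicate 2, and 0.12 to 0.155 without 1 of the other libraries. When library size alone was used 8 of 10 were above 0, with 67.7% of all genes. The 95% interval lay below a doubling for 8 of 10 genes, the exceptions being Cdkn1a and Sesn1. It lay above a halving for all but Gdf15, and it excluded both for 7 genes. For these 7 the depth and replication were enough to exclude a 2-fold change, whereas a doubling was not excluded for Cdkn1a and Sesn1, nor a halving for Gdf15.

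**Figure D3:**
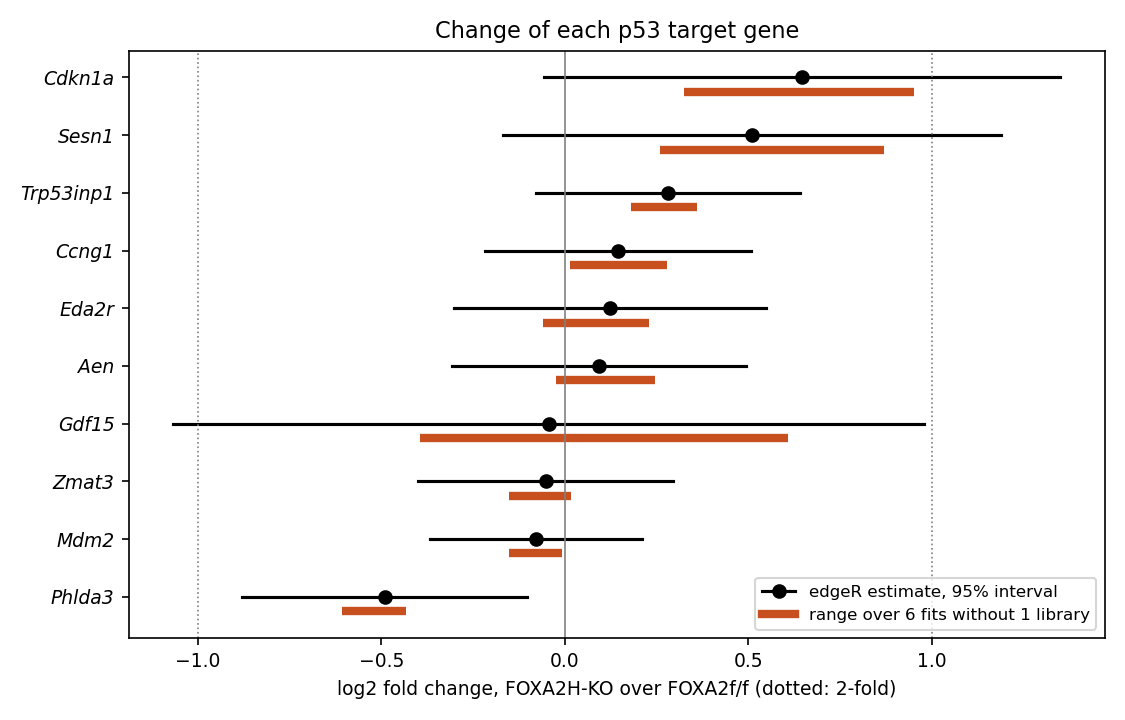
Log2 fold change of each gene, FOXA2H-KO over FOXA2f/f, with the edgeR estimate and 95% interval in black and the range over 6 fits without 1 library in orange. Dotted lines mark 2-fold. The interval for Phlda3 is the only one of 10 that excludes 0, and the orange bar of Gdf15 runs from -0.39 to 0.61.

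The members differed in how far libraries of the same group stood apart. Among 8295 genes with at least 10 CPM, the median ratio of the highest to the lowest library was 1.36 within FOXA2f/f and 1.20 within FOXA2H-KO. Gdf15 had a ratio of 3.93 within FOXA2f/f, and 2.66% of these genes were wider. Sesn1 had 2.36 (9.08% wider) and Cdkn1a 1.78 (17.5% wider). Within FOXA2H-KO it was Cdkn1a that varied most, with 1.86 (3.76% wider), while Gdf15 fell to 1.52 and Sesn1 to 1.30 there. Phlda3, by contrast, was among the steadiest genes within FOXA2f/f, with a ratio of 1.12 and 89.4% of genes wider. The difference in spread between the groups was not tested.

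The order of the FOXA2f/f libraries was the same for Gdf15, Sesn1 and the summed markers of 4 of the 6 non-hepatocyte sets, and 25.8% of all genes tested had that order too. Gdf15, Sesn1, the sum of 8 endothelial markers and the sum of 8 macrophage markers were highest in replicate 4 and lowest in replicate 2. The stellate cell sums had this order too (982, 859 and 2299 CPM in replicates 1, 2 and 4). The lymphocyte sums had it as well (40.3, 19.1 and 81.6 CPM). Most of the lymphocyte sums came from Ptprc, at 37.71, 17.98 and 77.14 CPM in FOXA2f/f replicates 1, 2 and 4. The other tested lymphocyte markers reached at most 1.462 CPM there (Cd79a in replicate 4). These sums therefore rest mostly on Ptprc, and the level of lymphocytes is not read from them. The endothelial sums were 346, 209 and 695 CPM and the macrophage sums 1122, 519 and 2491 CPM in FOXA2f/f replicates 1, 2 and 4. In FOXA2H-KO replicates 1, 2 and 4 the endothelial sums were 344, 440 and 428 CPM and the macrophage sums 1869, 1713 and 1144 CPM. There the macrophage order was the reverse of the orders of Gdf15 and Sesn1. Cdkn1a, Mdm2 and Aen had the opposite order within FOXA2f/f, with the highest value in replicate 2 and the lowest in replicate 4, as had 27.3% of all genes and the summed hepatocyte markers (136300, 152400 and 110000 CPM in replicates 1, 2 and 4). The part of these cells in the levels of Gdf15 and Sesn1 was not tested.

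**Figure D4:**
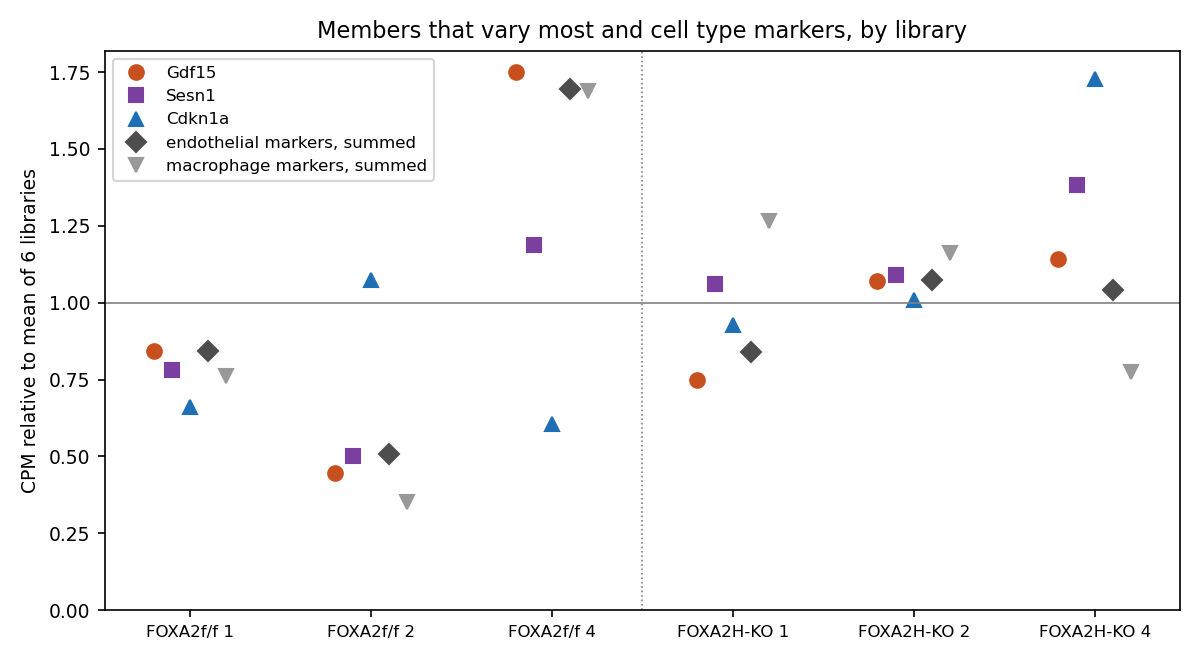
CPM of the most variable members and of the summed endothelial and macrophage markers in each library, relative to the mean of the 6 libraries (grey line at 1). The dotted line parts FOXA2f/f (left) from FOXA2H-KO (right). FOXA2f/f replicate 4 is high and replicate 2 low for Gdf15, Sesn1 and both marker sets, and Cdkn1a is highest in FOXA2H-KO replicate 4.

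Of 44 further p53 targets, 42 were tested, and 20 had a log2 fold change above 0 and 22 below, with a median of -0.02. With library size alone 30 were above 0 and 12 below, where 67.7% of all genes were above 0. None was called by edgeR's quasi-likelihood test, DESeq2 or the exact test, and 3, 4 and 3 of the 42 had an unadjusted p under 0.05, where 5.17%, 4.04% and 5.31% of all genes had one. The 3 found by the quasi-likelihood test were all lower in FOXA2H-KO. Fdxr, the mitochondrial ferredoxin reductase, had 21.4, 15.9 and 16.7 CPM in FOXA2f/f and 11.5, 13.6 and 11.7 CPM in FOXA2H-KO libraries (log2 fold change -0.55, SE 0.17, edgeR adjusted p = 0.791). Steap3, a ferrireductase, had 24.96, 33.2 and 23.0 against 20.9, 16.4 and 12.5 CPM (log2 fold change -0.70, SE 0.23, edgeR adjusted p = 0.807). Pvt1, a long noncoding RNA, had 2.90 ± 0.394 against 1.88 ± 0.0975 CPM (SD, n = 3 each; log2 fold change -0.63, SE 0.25, edgeR adjusted p = 0.933). The groups did not overlap for any of these 3 genes, which were named for their small p. Among the 42, groups did not overlap for 3 genes in the higher direction and 4 in the lower. The shares of all genes were 4.54% and 5.96%.

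By role, all 3 other feedback genes had a log2 fold change above 0 (median 0.17), where 47.8% of all genes were above 0. None of these 3 had an unadjusted p under 0.05 by edgeR, and nothing is read from so few genes. The genes of arrest (3 of 6 above 0), death (5 of 11), DNA repair (2 of 5), metabolism (4 of 11) and other roles (3 of 6) were divided. Bax, the pore-forming apoptosis effector, had 16.9, 13.9 and 17.1 CPM in FOXA2f/f and 14.3, 15.1 and 17.3 CPM in FOXA2H-KO libraries, with a log2 fold change of -0.04 (SE 0.15, edgeR adjusted p = 0.993). Bbc3, encoding the apoptosis initiator PUMA, had 4.61 ± 1.54 against 3.87 ± 0.332 CPM (SD, n = 3 each; log2 fold change -0.26, SE 0.28, edgeR adjusted p = 0.983). Sesn2, the relative of Sesn1, had 14.4 ± 3.18 against 15.6 ± 2.43 CPM (SD, n = 3 each; log2 fold change 0.12, SE 0.21, edgeR adjusted p = 0.991).

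Trp53 itself had 19.4, 21.1 and 22.1 CPM in FOXA2f/f and 20.1, 20.1 and 20.6 CPM in FOXA2H-KO libraries, with all FOXA2H-KO values inside the FOXA2f/f range (log2 fold change -0.04, SE 0.12, edgeR adjusted p = 0.993). The protein, which is mostly controlled by degradation, was not measured in these libraries. Of a list of 17 genes, Trp53 and its regulators, 14 were tested, 6 above 0 and 8 below, with log2 fold changes between -0.18 and 0.16, and none had an unadjusted p under 0.05 or was called with the quasi-likelihood test, DESeq2 or the exact test. With library size alone 13 of the 14 were above 0, as 67.7% of all genes were, and the median relative to that of all genes was -0.01, against -0.02 with TMM. Mdm4, the partner of MDM2, had 69.9 ± 13.3 against 71.8 ± 9.41 CPM (SD, n = 3 each). Usp7, the deubiquitinase of MDM2 and p53, had 67.7, 67.3 and 69.3 against 78.9, 71.6 and 77.5 CPM, which did not overlap (log2 fold change 0.16, SE 0.11, edgeR adjusted p = 0.983). Trp53bp1, a DNA break sensor, had 11.8 ± 0.580 against 13.04 ± 1.77 CPM (SD, n = 3 each; edgeR adjusted p = 0.983).

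Cdkn1a lowers the transcription of cell cycle genes when it is induced strongly, so 20 such genes, of mitosis and of DNA replication, were read beside it. None was called and none had an unadjusted p under 0.05 with the quasi-likelihood test, DESeq2 or the exact test. In FOXA2H-KO libraries 19 of 20 had a log2 fold change below 0 (median -0.12, against -0.01 for all genes), but 14 of 20 were above 0 without FOXA2f/f replicate 2. With library size alone 11 of 20 were above 0, and the median relative to that of all genes was -0.10, against -0.11 with TMM. Within FOXA2f/f, 17 of the 20 had the order replicate 2 above 1 above 4, against 27.3% of all genes tested. Cdkn1a had that same order, so there these genes were high where Cdkn1a was high. A relation of these genes to Cdkn1a was not tested. Aurkb, the Aurora B kinase, had 20.3, 23.7 and 18.97 CPM in FOXA2f/f and 15.5, 15.3 and 20.1 CPM in FOXA2H-KO libraries (log2 fold change -0.31, SE 0.17, edgeR adjusted p = 0.957). Cenpf, a kinetochore protein and the single gene above 0, had 31.5 ± 6.66 against 37.9 ± 5.20 CPM (SD, n = 3 each; log2 fold change 0.27, SE 0.18, edgeR adjusted p = 0.983).

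Gdf15 is also a target of ATF4 and CHOP, the transcription factors of the integrated stress response. Of 12 genes of that response, Gdf15 and Sesn2 included, 4 were above 0 and 8 below with a median log2 fold change of -0.23. The median was -0.09 without FOXA2H-KO replicate 1, with 6 on each side, -0.11 without FOXA2f/f replicate 1, -0.34 without FOXA2f/f replicate 4 or without FOXA2H-KO replicate 4, and -0.04 on the FPKM scale. Asns, asparagine synthetase, had 16.6, 10.03 and 4.58 CPM in FOXA2f/f and 2.72, 2.25 and 2.17 CPM in FOXA2H-KO replicates 1, 2 and 4, a log2 fold change of -2.12 (SE 0.44) with an edgeR quasi-likelihood adjusted p of 0.579. It was called by DESeq2 and by the exact test. Chac1, a glutathione-degrading enzyme, had 5.20, 3.51 and 5.98 against 1.95, 2.81 and 1.25 CPM (log2 fold change -1.29, SE 0.36, edgeR adjusted p = 0.693). Both were named for an unadjusted edgeR p under 0.05, which 2 of the 12 reached, against 5.17% of all genes. The groups did not overlap for these 2, while they overlapped for Gdf15 and the rest of the list. That is 0 of 12 in the higher direction and 2 of 12 in the lower, against 4.54% and 5.96% of all genes.

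**Figure D5:**
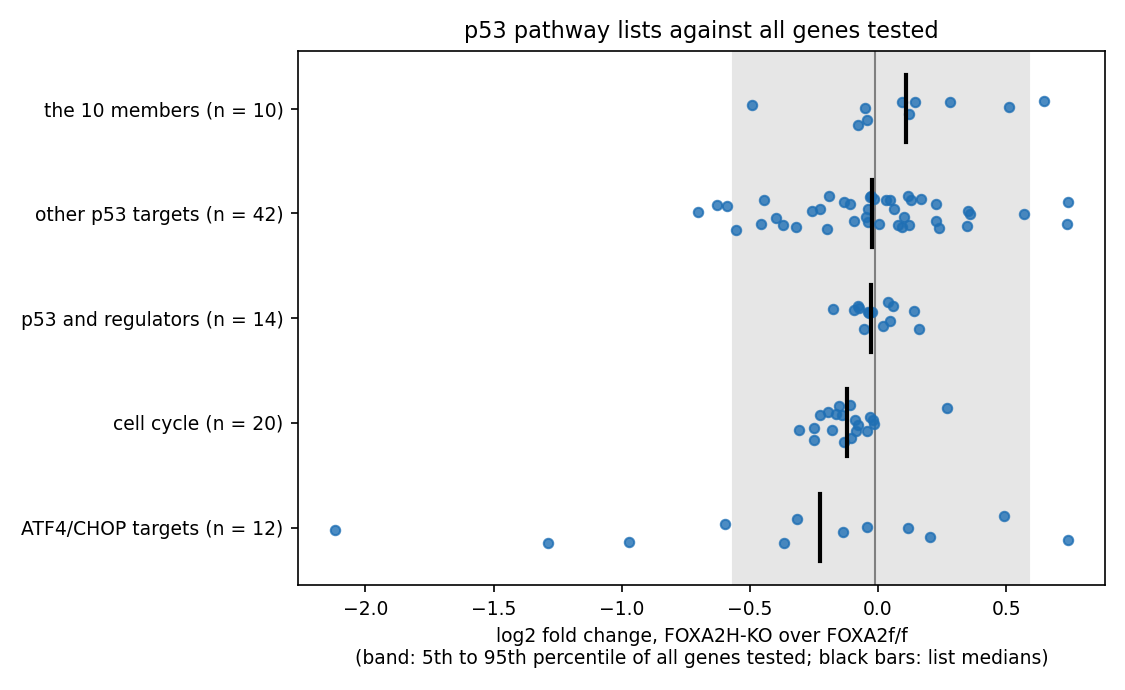
Log2 fold changes (FOXA2H-KO over FOXA2f/f) of the 10 genes and of 4 related lists, one point per gene, with list medians as black bars and the 5th to 95th percentile of all genes tested (-0.56 to 0.59) as a grey band. Medians lie between -0.23 and 0.11, and most genes fall inside the band. With library size alone the medians of the further p53 targets (0.10), of Trp53 and its regulators (0.09) and of the cell cycle genes (0.01) turn positive, as does that of all genes (0.10).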

How the data were processed

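Poly(A) RNA of hepatocytes isolated by collagenase perfusion and a slow spin was sequenced as paired ends in 6 libraries. The deposited counts are whole numbers per Ensembl gene, made by the authors without normalization. The deposited FPKM follow from them by total count and 1 length per gene (relative spread at most 8.28e-05 over 12937 genes). The submitters' processing notes name CASAVA 1.8, TopHat2 2.1.0, HTSeq, edgeR and mm10, while the annotation and the strand setting are not given in the sources used here. GENCODE M21 gave positions only. Groups and replicate numbers come from the sample titles. The labels do not say that each library is a separate mouse, and if it is not, p-values measure only the spread between these samples.

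Counts were fitted in R 4.3.3 with edgeR 4.0.16 (TMM, filterByExpr, which kept 14417 genes, quasi-likelihood, two-sided, Benjamini-Hochberg over all of them). A call was an adjusted p under 0.05 with a fold of at least 2. The common biological coefficient of variation was 25.3%. DESeq2 1.42.0, edgeR's exact test, limma 3.58.1 on log2(FPKM + 1), other scalings and filters, a replicate block and fits without 1 library were alternatives, and the script was tested on simulated data. The genes and lists were chosen with earlier results of these data known. Named genes are the 10, Foxa2, Trp53, Bax, Bbc3, Mdm4, Sesn2 and, per list, those with an unadjusted p under 0.05 or else the 2 with the smallest.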

Additional observations from a re-analysis of the deposited data

How the results depend on the processing

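No alternative called any of the 10 genes: the count stayed 0 in all 16. Several of the alternative fits called 0 of all genes. Foxa2, the deleted gene, was itself called in only 7 settings, the main fit among them. A count of 0 was therefore likely in most fits, and no robustness is read from it. Of 139 alternative fits of single genes, 128 kept the direction and the side of the threshold, and 11 changed sign. Cdkn1a, Ccng1, Phlda3, Trp53inp1 and Sesn1 never changed sign. With library size alone the median log2 fold change of the 10 moved from 0.11 to 0.24 while that of all genes moved from -0.01 to 0.10, and Mdm2 (0.0516) and Zmat3 (0.0738) turned positive. Relative to all genes the median of the 10 was 0.12 and then 0.14. With limma on FPKM the median of the members fitted was 0.23, against 0.08 for all genes (0.14 relative to them). There Mdm2 was 0.0418 and Gdf15 0.23, and Zmat3, under a mean of 1 FPKM, could not be fitted. Without 1 library, Eda2r ranged from -0.0588 to 0.23, Aen from -0.0233 to 0.25, Zmat3 from -0.15 to 0.0179 and Gdf15 from -0.39 to 0.61. The genes without overlap numbered 2 to 4, the 4 being Mdm2, Phlda3, Sesn1 and Trp53inp1 without FOXA2f/f replicate 4. Fewer libraries separate more easily, and the share of all genes in these fits was not computed, so nothing is read from the rise. Without that library 2424 of 14560 genes had an unadjusted edgeR p under 0.05, against 745 of 14417 with all libraries.

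Same-numbered libraries did not deviate together (r of -0.07, 0.03 and -0.23 for numbers 1, 2 and 4), while pairs with unlike numbers ran from -0.19 to 0.25. With so few libraries these values cannot show whether the samples were paired, for instance by day or batch. With the replicate block 0 of the 10 were called, 7 were higher, the median was 0.12, and Gdf15 was 0.14. Over all genes, the quasi-likelihood test called 1, DESeq2 75, the exact test 64, the block fit 0, no low-count filter 2, library size alone 0, limma on FPKM 0 and the fits without 1 library 0 to 6. With 3 libraries per group the exact permutation p could not go below 0.1, and the widest interval of the 10, that of Gdf15, reached -1.07 on the log2 scale.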

Other observations

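Of the 42 further p53 targets tested, 13 (31.0%) had the order of Gdf15 within FOXA2f/f, replicate 4 above 1 above 2, against 25.8% of all genes tested. One of them, Btg2, an antiproliferative early response gene, was chosen after its values were seen, and its replicates 1 and 4 were nearly equal. It had 129, 35.8 and 130 CPM in FOXA2f/f replicates 1, 2 and 4, and 76.2, 102 and 107 CPM in FOXA2H-KO replicates 1, 2 and 4. The low FOXA2f/f replicate 2 left the groups overlapping (log2 fold change -0.05, SE 0.43, edgeR adjusted p = 0.998). Trp63 and Trp73, the relatives of Trp53, had 0 to 3 and 0 to 4 counts in a library and were not tested, and Cdkn2a, whose product ARF restrains MDM2, had 1 to 9 counts and was not tested either.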
